A study of Mus musculus with 9 samples.

Results

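The genes described here are the protease inhibitors of the serpin family together with A2m, the gene of alpha-2-macroglobulin, in 4T1 tumors from mice on different diets. Members were the genes whose symbol starts with Serpin, plus A2m. This gave 64 members, 63 serpins and A2m, among 22609 genes listed in the deposited count files. 4T1 is a mouse mammary carcinoma line that the labels call triple-negative breast cancer (TNBC), and 500000 cells per mouse were placed orthotopically, in a mammary fat pad, in BALB/c hosts. Bulk RNA-seq counts were given for 9 tumor libraries, 3 in each of 3 groups. The LFD group ate a diet with 10 kcal% fat and received vehicle, 0.3% hydroxy propyl cellulose. The HFD group ate a diet with 60 kcal% fat and received the same vehicle. The HFD + EC359 group ate the diet with 60 kcal% fat and received EC359, an inhibitor of the leukemia inhibitory factor receptor (LIFR), by intraperitoneal injection at 5 mg/kg on 5 days per week. All mice had been on their diet for 6 weeks before the injection of cells and carried the same unmodified 4T1 line. HFD against LFD asks which inhibitors differ with the diet, and HFD + EC359 against HFD asks which differ with the drug on that diet. The ages of the mice, and whether each library came from 1 tumor of its own, are not given in the sources used here.

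Serpins are proteins of one shared fold, most of which offer a flexible loop to a protease, are cut, and then trap the enzyme in a covalent complex. A few family members inhibit no protease and serve as chaperones, hormone carriers or signals. Alpha-2-macroglobulin inhibits proteases of all classes by closing around them like a cage, and it is taken up by cells through the receptor Lrp1. In tumors these inhibitors act on plasminogen activation, complement, clotting and the proteases of leukocyte granules, and the STAT3 pathway below LIFR is known to act on several of them in other tissues.

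Library totals ran from 5085357 to 9751201 counts, so that a floor of 3 counts, up to which a gene without counts may still be present, lay between 0.30 and 0.614 CPM (counts per 1e6 counts, on scaled totals). This floor covers counting error only. LFD replicate 1 had the smallest total and stood apart from the other LFD libraries, with a chi-square per gene of 3.00 and 2.46 against them, where other pairs of one group gave 1.36 to 1.57. Counting error alone gives about 1, so those other pairs differed little beyond it. The libraries also differed in base composition, and genes of low GC content relative to genes of high GC content were lower in the LFD libraries (log2 difference of -0.54 to -0.32) than in HFD (0.10 to 0.16) and HFD + EC359 libraries (0.25 to 0.30). Of 8 markers of mammary carcinoma cells, 5 could be tested and Krt19, Krt7 and Cldn7 had at most 15 counts. Epcam, a defining marker of such cells, had 7.39 ± 0.467 CPM in LFD, 1.37 ± 0.515 in HFD and 5.06 ± 0.703 in HFD + EC359 tumors (mean ± SD, n = 3). Because tumors were measured in bulk, fewer cells of a type and less RNA per cell cannot be told apart.

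Of the 64 members, 20 passed the filter on low counts and were tested, 31 had counts in at least 1 library but too few for a test, and 13 had no count in any library. The members together took 0.150% to 0.202% of the counts of a library. Their summed level was 1559 to 1593 CPM in LFD, 1980 to 2013 in HFD and 1788 to 1841 in HFD + EC359 tumors, with no overlap between the groups. Serpinh1 and Serpine2 alone made up 75.1% to 78.5% of that sum. Their level per length was also the highest, at a mean over all libraries of 282 CPM per kb of exon for Serpinh1 and 338 for Serpine2, and Serpinf1 (46.9), Serpinb6a (40.8) and Serpina3g (16.8) were among the next. A2m was the lowest tested member on this scale (0.351 CPM per kb).

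In HFD against LFD tumors, A2m, Serpina3n and Serping1 rose past the 2-fold threshold (over 2-fold, adjusted p under 0.01), and Serpinb5 and Serpinb3b fell past it. These were 3 of the 20 tested members upward and 2 downward, where 3.03% and 2.68% of all 13366 tested genes passed in those directions. At an adjusted p under 0.05 with any fold change, 9 members rose and 3 fell, against 26% and 25.8% of the genes tested. In HFD + EC359 against HFD tumors, A2m, Serpina3n and Serping1 fell past 2-fold, and Serpinb5, Serpinb3b and Serpinb1a rose past it. These were 3 members downward and 3 upward, against 1.38% and 2.06% of the genes tested. At an adjusted p under 0.05, 7 members fell and 8 rose, against 13.9% and 12.7%. In the following, a change with the diet is one of HFD against LFD tumors, and a change with EC359 is one of HFD + EC359 against HFD tumors. Counts below of genes in a group or list that rose or fell are at an adjusted p under 0.05. They are to be read beside the shares of all tested genes given here. Both comparisons use the same HFD libraries, so a value particular to those libraries enters both. In HFD + EC359 against LFD tumors no member passed 2-fold, by edgeR or by DESeq2, against 3.66% of the genes tested upward and 1.43% downward. Without adjustment 2 members, A2m and Serpinb3b, had a fold over 2 with p under 0.05 in that comparison. At an adjusted p under 0.05, 7 members were higher and 1 was lower in HFD + EC359 than in LFD tumors, against 29.2% and 29.1%. A2m and Serpinb3b reached a test only through the group in which they are high, A2m through the HFD libraries and Serpinb3b through the HFD + EC359 libraries with 1 LFD library, and had to differ to be tested at all. The median log2 fold change of the tested members was 0.16, 0.10 and 0.21 in the 3 comparisons, in the order given here, and that of all tested genes was 0.01 in each.

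**Figure D1:**
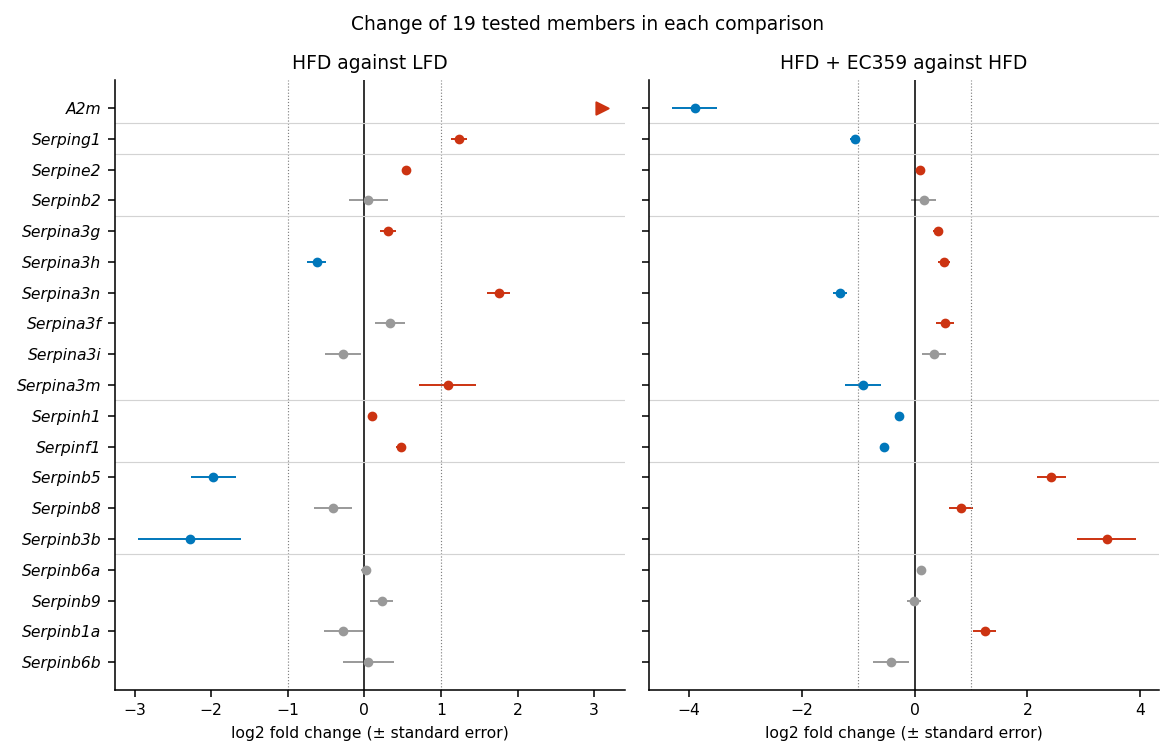
The plot shows the log2 fold change of 19 of the 20 tested members, grouped by role, in HFD against LFD tumors (left) and HFD + EC359 against HFD tumors (right), with points in red for an adjusted p under 0.05 upward, in blue for the same downward and in grey otherwise, bars for the standard error, and dotted lines at 2-fold. A2m, at 0 in every LFD library, is drawn on the left as a triangle at its lower bound of 8.59-fold (log2 of 3.10).

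A2m (mm9 chr6:121586191-121629256, plus strand) was counted in HFD tumors and hardly elsewhere. It had 0 counts in each LFD library, 43, 28 and 35 counts in HFD replicates 1 to 3, and 3, 1 and 4 counts in the HFD + EC359 replicates. On the CPM scale the HFD libraries stood at 5.42, 3.67 and 4.77 and the HFD + EC359 libraries at 0.364, 0.113 and 0.400. The 3 groups did not overlap. Against a floor of 3 counts per library, and with the HFD mean taken as counted, A2m was at least 8.59-fold higher in HFD than in LFD tumors (adjusted p = 1.2e-09, edgeR quasi-likelihood test). It fell by 3.90 on the log2 scale in HFD + EC359 against HFD tumors (SE 0.402, adjusted p = 4.91e-09). The HFD + EC359 mean of 0.292 CPM lay below the floor, so the size of this fall is uncertain. A2m passed the filter only through its HFD libraries and had to differ to be tested. HFD + EC359 tumors differed from LFD tumors with an adjusted p of 0.0235, but their mean lay below the floor and no fold is given, and this call was lost in 4 of 17 alternatives, among them those without LFD replicate 2 (adjusted p = 0.0664), LFD replicate 3 (0.0584) or replicate 3 of HFD + EC359 (0.0656).

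A2m is best known as a plasma protein made in the liver. Of 10 hepatocyte markers, 1 of them the member Serpinc1, none passed the filter. Their summed level was 0.881 to 1.26 CPM in LFD, 1.44 to 3.13 in HFD and 1.35 to 2.3 in HFD + EC359 libraries, Alb (albumin) had at most 6 counts, and Ahsg was at 0 in every library. The related macroglobulin genes Mug1 and Pzp had at most 1 count, Mug2 had none, and they were not tested. Of the 10 genes listed for macroglobulins and their receptor, 6 were tested, of which 0 rose and 2 fell in HFD against LFD tumors and 1 rose and 1 fell in HFD + EC359 against HFD tumors. Lrp1, which clears complexes of A2m and of several serpins, was among the more abundant genes and had 2593 ± 54.7 CPM in LFD and 2576 ± 19.5 in HFD tumors (adjusted p = 0.785). It fell by 0.08 on the log2 scale in HFD + EC359 against HFD tumors (adjusted p = 0.0162).

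**Figure D2:**
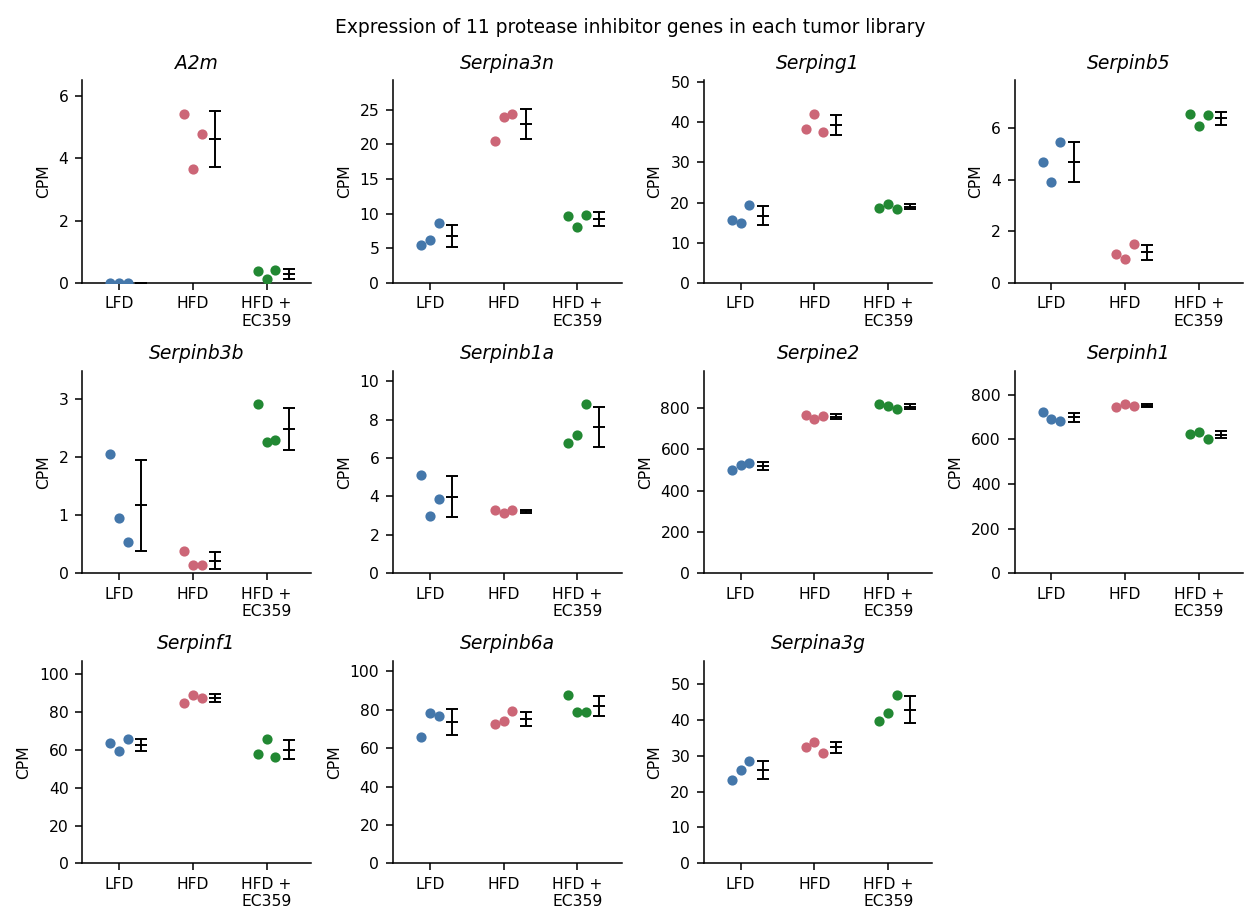
Each panel plots 1 member on its own vertical axis, the level in CPM from 0, for 3 LFD, 3 HFD and 3 HFD + EC359 libraries as points, with the group mean and SD as a black bar. A2m, Serpina3n and Serping1 are highest in the 3 HFD libraries, Serpinb5 and Serpinb3b are lowest there, and Serpinb6a overlaps between LFD and HFD.

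Serping1 (mm9 chr2:84605517-84615586, minus strand) codes for C1 inhibitor, the serpin that blocks the complement proteases C1r and C1s and the contact proteases of clotting. Its level was 15.8, 14.9 and 19.4 CPM in the LFD libraries, 38.2, 42.0 and 37.6 in the HFD libraries, and 18.7, 19.6 and 18.5 in the HFD + EC359 libraries. All HFD libraries lay above all others, while LFD and HFD + EC359 libraries overlapped. Serping1 rose by 1.24 on the log2 scale with the diet (SE 0.105, adjusted p = 1.5e-11) and fell by 1.05 with EC359 (SE 0.0932, adjusted p = 8.1e-11). Among the 5 proteases of the complement C1 and lectin complexes that were tested, 2 rose and 0 fell with the diet, and 1 rose and 1 fell with EC359. C1s, the protease Serping1 blocks, had 26.8 ± 1.25, 51.1 ± 0.675 and 44.1 ± 1.74 CPM in LFD, HFD and HFD + EC359 tumors, a rise of 0.93 and a fall of 0.21 on the log2 scale (adjusted p = 5.11e-11 and 0.0265). Masp1, a lectin-pathway protease, had 46.2 ± 6.03 CPM in LFD and 41.1 ± 2.32 in HFD tumors (adjusted p = 0.078) and rose by 0.38 with EC359 (adjusted p = 0.000439). Of the other 4 members in this role, Serpinc1 (antithrombin) had at most 13 counts, Serpina10 and Serpind1 at most 3, and Serpina5 at most 1.

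The inhibitors of plasminogen activators and plasmin included Serpine2, the member with the highest level per length. Serpine2 (mm9 chr1:79790896-79855240, minus strand), protease nexin-1, which inhibits thrombin and urokinase, had 499, 522 and 535 CPM in LFD, 768, 748 and 763 in HFD, and 819, 809 and 796 in HFD + EC359 libraries. It rose by 0.55 on the log2 scale in HFD against LFD tumors (SE 0.0334, adjusted p = 4.81e-15) and remained 0.64 above LFD in HFD + EC359 tumors (SE 0.0332, adjusted p = 6.53e-17). Its difference of 0.09 between HFD + EC359 and HFD tumors passed an adjusted p of 0.05 (0.0369) but was lost in 10 of 19 alternatives, with any 1 of the 6 libraries of that comparison left out among them (adjusted p of 0.0701 to 0.152).

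Serpinb2, plasminogen activator inhibitor type 2, overlapped between all groups, at 4.05 ± 1.6, 4.33 ± 0.889 and 4.84 ± 0.311 CPM. Serpini1 (neuroserpin), which was not tested, had at most 5 counts, with 12 in all in HFD and 2 in HFD + EC359 libraries, 7.10-fold lower after scaling to the totals (95% exact counting interval 1.58 to 65.3), and Serpinf2 (antiplasmin) at most 4, and Serpine3 was not counted.

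Of the 17 tested genes of plasminogen activation and clotting, 3 rose and 6 fell with the diet, and 3 rose and 4 fell with EC359. Of all tested genes, 26% rose and 25.8% fell with the diet, and 12.7% rose and 13.9% fell with EC359. Plat, tissue plasminogen activator, rose past 2-fold with the diet, from 26.3 ± 1.15 to 55.1 ± 1.25 CPM (log2 fold change 1.07, SE 0.083, adjusted p = 1.55e-12), and fell by 0.41 with EC359 (adjusted p = 3.02e-05). Plau, urokinase, fell by 0.40 on the log2 scale with the diet (adjusted p = 6.92e-10) and had a difference of -0.05 with EC359 (adjusted p = 0.342). Anxa2, a cell-surface receptor for plasminogen and its activator, fell by 0.19 with the diet (adjusted p = 5.96e-05) and differed by -0.02 with EC359 (adjusted p = 0.751). The gene of plasminogen itself, Plg, was not counted in any library.

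Serpinf1 and Serpinh1 inhibit no protease. Serpinf1 (mm9 chr11:75223531-75236125, minus strand) codes for pigment epithelium-derived factor, a secreted inhibitor of vessel growth. It had 63.4, 59.3 and 65.6 CPM in LFD, 84.9, 89.2 and 87.6 in HFD, and 58.0, 65.9 and 56.3 in HFD + EC359 libraries, and only the HFD libraries lay apart. It rose by 0.48 with the diet (SE 0.0656, adjusted p = 2.88e-07) and fell by 0.54 with EC359 on the log2 scale (SE 0.0611, adjusted p = 1.99e-08). Serpinh1 (mm9 chr7:106493885-106501749, minus strand) codes for HSP47, the collagen chaperone of the endoplasmic reticulum. It had 721, 692 and 683 CPM in LFD, 745, 757 and 748 in HFD, and 625, 635 and 604 in HFD + EC359 libraries, with no overlap between groups. It rose by 0.10 on the log2 scale with the diet (adjusted p = 0.00891), a call lost without LFD replicate 3 (adjusted p = 0.0524) and a value that reached 0.29 once the trend with GC content and length was removed (adjusted p = 1.95e-10). It fell by 0.27 with EC359 (SE 0.0324, adjusted p = 5.77e-08) and was 0.17 lower in HFD + EC359 than in LFD tumors (adjusted p = 5.3e-05), where the difference turned to 0.06 upward once the trend with GC content and length was removed (adjusted p = 0.0943).

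Of the 12 tested genes that modify collagen beside HSP47, 6 rose and 4 fell with the diet, and 2 rose and 6 fell with EC359. P4hb, a subunit of prolyl hydroxylase, had 661 ± 7.11, 682 ± 9.26 and 632 ± 18.4 CPM in LFD, HFD and HFD + EC359 tumors and fell by 0.11 on the log2 scale with EC359 (adjusted p = 0.00974). P4ha1, the catalytic subunit, rose by 0.36 with the diet (adjusted p = 5.95e-09). Leprel1, another prolyl hydroxylase, was the 1 gene of this list past 2-fold, falling by 1.004 with the diet (adjusted p = 5.35e-09). The summed fibroblast and endothelial markers were also highest in HFD tumors. In HFD + EC359 tumors the fibroblast sum lay below that of LFD tumors and the endothelial sum above it. Singly, 5 fibroblast markers were higher and 4 lower in HFD + EC359 than in LFD tumors, with a median log2 fold change of 0.099. All 10 fibroblast markers rose with the diet, and with EC359 6 fell and 1 rose, the summed level being 7961 to 9381 CPM in LFD, 13822 to 14553 in HFD and 4190 to 4300.3 in HFD + EC359 libraries. All 8 endothelial markers rose with the diet and 5 fell with EC359, with sums of 394 to 421, 635 to 668 and 559 to 574 CPM. None of these 18 markers was at 0. The part of these cells in the values of Serping1, Serpinf1 and Serpinh1 was not tested.

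The antichymotrypsin family, whose mouse members together correspond to 1 human gene, showed changes in both directions. Of its 11 members on chromosome 12, 6 were tested, of which 3 rose and 1 fell with the diet and 3 rose and 2 fell with EC359. At the same adjusted p under 0.05, 26% of all tested genes rose and 25.8% fell with the diet. With EC359 these shares were 12.7% and 13.9%. Serpina3n (mm9 chr12:105644918-105652539, plus strand), an acute-phase inhibitor of granule proteases such as granzyme B and elastase, had 5.52, 6.12 and 8.64 CPM in LFD, 20.4, 24 and 24.4 in HFD, and 9.7, 8.01 and 9.8 in HFD + EC359 libraries. Every HFD library was above every other library, while the 2 other groups overlapped. Serpina3n rose by 1.75 on the log2 scale with the diet (SE 0.151, adjusted p = 2.05e-11) and fell by 1.32 with EC359 (SE 0.126, adjusted p = 5.25e-10). It was 0.43 higher in HFD + EC359 than in LFD tumors (adjusted p = 0.0329), a call lost in 6 of 19 alternatives, those with LFD replicate 1 (adjusted p = 0.135) or 2 (0.145), or replicate 1 (0.0808) or 3 (0.110) of HFD + EC359, left out among them.

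Serpina3g (mm9 chr12:105452754-105480144, plus strand), an intracellular inhibitor of cathepsins, had 23.3, 26.1 and 28.6 CPM in LFD, 32.3, 33.8 and 30.8 in HFD, and 39.7, 41.8 and 47.0 in HFD + EC359 libraries. The 3 groups did not overlap, and the order was LFD, HFD, HFD + EC359. Serpina3g rose by 0.31 with the diet (SE 0.1, adjusted p = 0.0102) and by 0.41 with EC359 (SE 0.0855, adjusted p = 0.000403) on the log2 scale. Serpina3f had 6.19 ± 1.85, 7.95 ± 0.722 and 11.6 ± 1.8 CPM and rose by 0.54 with EC359 (adjusted p = 0.0107), a call lost when replicate 1 of HFD (0.0594) or replicate 2 of HFD + EC359 (0.0715) was left out. The exons listed for Serpina3f and Serpina3g overlap in part on the same strand, so that counts from the shared part cannot be separated. Serpina3h fell by 0.62 on the log2 scale with the diet (adjusted p = 5.82e-05) and rose by 0.52 with EC359 (adjusted p = 0.000603), from 19.9 ± 1.11 CPM in LFD to 12.9 ± 0.996 in HFD and 18.5 ± 1.6 in HFD + EC359 tumors. Serpina3m had 1.5 ± 1.04, 3.3 ± 1.14 and 1.72 ± 0.267 CPM and passed an adjusted p of 0.05 in both comparisons (0.0156 and 0.034). Its call was lost in the first without LFD replicate 1 or 2 or HFD replicate 2 or 3 (adjusted p of 0.0548 to 0.0934), and in the second by DESeq2 (0.0999) and without HFD replicate 2 or 3 or any 1 HFD + EC359 library (0.0502 to 0.206). Because most read pairs with several alignments were dropped in the counting, values in this family may be too low to an unequal degree.

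The promoters of Serpina3n and Serpina3g are shown because these neighbors of 1 family differed in direction with EC359, and because LIFR acts through STAT3. Each is the 250 bases before the start site, read 5′ to 3′ from RefSeq (build GRCm38.p6), with a match to the STAT palindrome TTCNNNGAA, on either strand, in capitals. The Serpina3n window is chr12:104406458-104406707 (plus strand) and the Serpina3g window is chr12:104235897-104236146 (plus strand).
Serpina3n: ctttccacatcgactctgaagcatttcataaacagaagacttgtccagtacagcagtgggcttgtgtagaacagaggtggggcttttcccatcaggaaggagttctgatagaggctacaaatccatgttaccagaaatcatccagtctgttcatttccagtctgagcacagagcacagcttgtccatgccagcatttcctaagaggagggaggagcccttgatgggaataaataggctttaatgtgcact
Serpina3g: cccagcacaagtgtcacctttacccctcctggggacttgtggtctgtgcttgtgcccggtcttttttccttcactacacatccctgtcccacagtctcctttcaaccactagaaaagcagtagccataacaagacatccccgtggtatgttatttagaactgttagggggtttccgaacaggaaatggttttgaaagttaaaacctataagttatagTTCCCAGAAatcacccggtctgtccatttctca
The Serpina3n window held no match, and the Serpina3g window held 1, from 33 to 25 bases before the start. A2m, Serping1, Serpinb1a, Serpina3h and Serpina3m were among the tested members without a promoter entry, so they were not searched. Other tested members with an entry and a match in a window were Serpina3f, Serpina3i, Serpinb2 and Serpinb6a. Of these Serpina3f rose with EC359 (adjusted p = 0.0107). Serpina3i, which held the same TTCCCAGAA, Serpinb2 and Serpinb6a did not pass with EC359 (adjusted p of 0.246, 0.663 and 0.169, edgeR). Among all 32851 promoters of this length, 7.02% held the palindrome. Of the 64 members, 51 had an entry in the promoter table, with 60 promoters in all, of which 10 held it. Those 10 count overlapping windows of Serpina11 and of Serpina3f separately, so they are not independent, and the difference in share was not tested. A match is a description of letters and not a binding site, and its absence says only that these letters are not in this window. The gene model that was counted for Serpina3g also spans the Serpina3f region, so the promoter shown is that of RefSeq and need not be the start of all transcripts counted.

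The clade B serpins, which mostly act inside cells, lie in 1 cluster on chromosome 1 and in another on chromosome 13, and of the former Serpinb5, Serpinb3b and Serpinb8 had their lowest mean in HFD tumors. Of 11 members of the chromosome 1 group, Serpinb2 aside, 3 were tested, and 0 rose and 2 fell with the diet while 3 rose and 0 fell with EC359. Of all tested genes, 25.8% fell with the diet and 12.7% rose with EC359 at that threshold, an adjusted p under 0.05. Serpinb5 (mm9 chr1:108757757-108779925, plus strand) codes for maspin, an epithelial serpin that inhibits no protease and is known as a suppressor of mammary tumor invasion. It had 4.71, 3.92 and 5.46 CPM in LFD (23, 25 and 31 counts), 1.13, 0.917 and 1.5 in HFD (9, 7 and 11 counts), and 6.55, 6.09 and 6.5 in HFD + EC359 libraries (54, 54 and 65 counts). No groups overlapped. Serpinb5 fell by 1.97 on the log2 scale with the diet (SE 0.299, adjusted p = 1.54e-06) and rose by 2.42 with EC359 (SE 0.259, adjusted p = 5.78e-09). HFD + EC359 tumors were 0.45 above LFD tumors (adjusted p = 0.0611).

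Serpinb3b (mm9 chr1:109050538-109057691, minus strand), of the squamous cell carcinoma antigen family that inhibits serine and cysteine proteases, had 10, 6 and 3 counts in LFD, 3, 1 and 1 in HFD, and 24, 20 and 23 in HFD + EC359 libraries. On the CPM scale these were 2.05, 0.942 and 0.529, then 0.378, 0.131 and 0.136, and then 2.91, 2.26 and 2.3. The groups did not overlap, but the HFD counts were at or under 3 in every library. From the summed counts, Serpinb3b was 5.14-fold lower in HFD than in LFD tumors (95% exact counting interval 1.86 to 17.6, adjusted p = 0.00514 by edgeR) and 11.3-fold higher in HFD + EC359 than in HFD tumors (4.62 to 36, adjusted p = 4.89e-06). The 2-fold call with the diet was lost without LFD replicate 1 (adjusted p = 0.074), HFD replicate 2 or HFD replicate 3, and Serpinb3b did not pass the filter when libraries were thinned to equal totals or when the LFD and HFD libraries were fitted alone. In HFD + EC359 against LFD tumors the log2 fold change was 1.13 (adjusted p = 0.0144), lost in 6 of 17 alternatives.

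Serpinb8, an inhibitor of the proprotein convertase furin, had 4.29 ± 1.27 CPM in LFD, 3.27 ± 0.131 in HFD (adjusted p = 0.167) and 5.79 ± 0.356 in HFD + EC359 tumors, and it rose by 0.82 on the log2 scale with EC359 (SE 0.213, adjusted p = 0.00387). The untested genes of the cluster had few counts, at most 9 for Serpinb10-ps, 8 for Serpinb11, 7 for Serpinb12, 4 for Serpinb7, 3 for Serpinb3a and Serpinb3c, and 1 for Serpinb3d and Serpinb13. Serpinb10-ps had 18 counts in all in HFD + EC359 and 3 in HFD libraries, a ratio of 5.07 after scaling to the totals (95% exact counting interval 1.48 to 26.9). The promoters of Serpinb5, Serpinb8 and Serpinb3b, which rose with EC359, are shown with matches to the AP-1 site TGANTCA, searched on both strands, in capitals. The windows are chr1:106860925-106861174 for Serpinb5 and chr1:107589756-107590005 for Serpinb8 (plus strand) and chr1:107161115-107161364 for Serpinb3b (minus strand), all from RefSeq (GRCm38.p6).
Serpinb5: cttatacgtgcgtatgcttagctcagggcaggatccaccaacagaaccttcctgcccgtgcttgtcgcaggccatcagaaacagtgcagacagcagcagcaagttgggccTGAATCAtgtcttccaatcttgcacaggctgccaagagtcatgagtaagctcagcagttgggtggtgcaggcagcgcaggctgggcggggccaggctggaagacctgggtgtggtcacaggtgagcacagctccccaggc
Serpinb8: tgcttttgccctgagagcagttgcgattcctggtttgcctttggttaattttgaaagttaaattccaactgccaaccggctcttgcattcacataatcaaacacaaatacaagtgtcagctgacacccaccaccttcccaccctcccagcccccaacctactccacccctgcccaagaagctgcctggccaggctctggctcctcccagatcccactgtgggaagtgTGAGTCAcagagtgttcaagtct
Serpinb3b: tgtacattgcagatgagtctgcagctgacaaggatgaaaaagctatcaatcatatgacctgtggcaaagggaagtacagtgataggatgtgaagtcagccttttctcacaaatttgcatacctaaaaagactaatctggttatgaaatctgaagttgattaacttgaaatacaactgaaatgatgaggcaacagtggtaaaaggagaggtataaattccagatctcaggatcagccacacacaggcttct
The match lies 140 to 134 bases before the start in Serpinb5 and 23 to 17 bases before it in Serpinb8. Serpinb3b, with the largest rise of the 3, held no match, and Serpinb2 of the same cluster, which did not pass the test with EC359 (adjusted p = 0.663), held one. Of all promoters of this length, 6.75% held the site, as did 11 of the 60 member promoters. Those 11 include the similar copies Serpina1a, Serpina1b, Serpina1c and Serpina1d, all untested, and overlapping windows of Serpinb2. They are not independent, and the difference in share was not tested.

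Summed markers of the epidermis were also lowest in HFD tumors, though in HFD + EC359 tumors they stayed below LFD. Of 15 such markers, 13 were tested, of which 2 rose and 9 fell with the diet and 11 rose and 0 fell with EC359. Their summed level was 1158 to 1323 CPM in LFD, 201 to 216 in HFD and 580 to 588 in HFD + EC359 libraries, and none of those in the files was at 0. Past 2-fold, 1 of these markers rose and 8 fell with the diet, and 9 rose with EC359. Among them, Krt5 stood at 253 ± 15.8 CPM in LFD, 30.6 ± 4.69 in HFD and 143 ± 3.34 in HFD + EC359 tumors. Krt14 stood at 762 ± 68.9, 40.6 ± 0.271 and 237 ± 3.00 CPM. Both keratins together made up most of the LFD sum and a smaller part of the HFD sum. The summed mammary carcinoma markers were also lower in HFD (707 to 715 CPM) than in LFD (1122 to 1142) and HFD + EC359 libraries (766 to 796). All 5 tested ones fell with the diet, 3 of them past 2-fold, and with EC359 4 rose, 3 of them past 2-fold. Their median log2 fold changes were -2.27 with the diet and 1.75 with EC359, beside -1.84 and 1.75 for the epidermal markers. The part of skin or of epithelial cells in the values of Serpinb5, Serpinb3b and Serpinb8 was not tested.

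In the chromosome 13 cluster, 4 of 15 members were tested. At an adjusted p under 0.05, 1 of them rose in HFD + EC359 against HFD tumors, as did 12.7% of all tested genes, and none passed with the diet. Serpinb1a (mm9 chr13:32933961-32943054, minus strand), an inhibitor of neutrophil elastase, cathepsin G and mast cell chymase, had 5.11, 2.98 and 3.88 CPM in LFD, 3.28, 3.14 and 3.27 in HFD, and 6.79, 7.22 and 8.8 in HFD + EC359 libraries. LFD and HFD libraries overlapped and every HFD + EC359 library lay above them. Serpinb1a differed by -0.27 on the log2 scale between HFD and LFD tumors (adjusted p = 0.388), rose by 1.24 with EC359 (SE 0.204, adjusted p = 1.65e-05) and was 0.97 higher in HFD + EC359 than in LFD tumors (SE 0.212, adjusted p = 0.000224). Serpinb6a (mm9 chr13:34009787-34094663, minus strand), an inhibitor of cathepsin G and the most abundant clade B member per length, had 66.1, 78.3 and 76.7 CPM in LFD, 72.8, 74.0 and 79.6 in HFD, and 87.9, 78.8 and 78.9 in HFD + EC359 libraries. Its groups overlapped in both comparisons and no test was passed (adjusted p of 0.767 and 0.169). Serpinb9, the inhibitor of granzyme B, had 9.16 ± 0.45, 10.7 ± 0.529 and 10.6 ± 0.708 CPM (adjusted p of 0.21 and 0.965), and Serpinb6b had 2.18 ± 0.519, 2.25 ± 0.774 and 1.7 ± 0.191 CPM (adjusted p of 0.905 and 0.373).

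The untested Serpinb6c had 2, 7 and 6 counts in LFD, 0 in each HFD library, and 4, 9 and 11 in HFD + EC359 libraries. Against a floor of 3 counts per HFD library, the means of LFD and HFD + EC359 tumors were 2.17-fold and 2.20-fold higher. These means were taken as counted, without their own counting error, so the values are no strict bounds. LFD replicate 1, at 2 counts, lay under a floor of 3 counts itself. Serpinb6c had too few counts for the test used here. It passed 2-fold in both comparisons when all genes with at least 1 count were tested, a filter it met only through the groups where it was counted. Of the remaining untested members of this cluster, Serpinb9b had at most 6 counts, Serpinb6e 2, and Serpinb1b, Serpinb1c and Serpinb6d 1. Serpinb9c, Serpinb9d, Serpinb9e, Serpinb9f and Serpinb9g were not counted in any library.

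**Figure D3:**
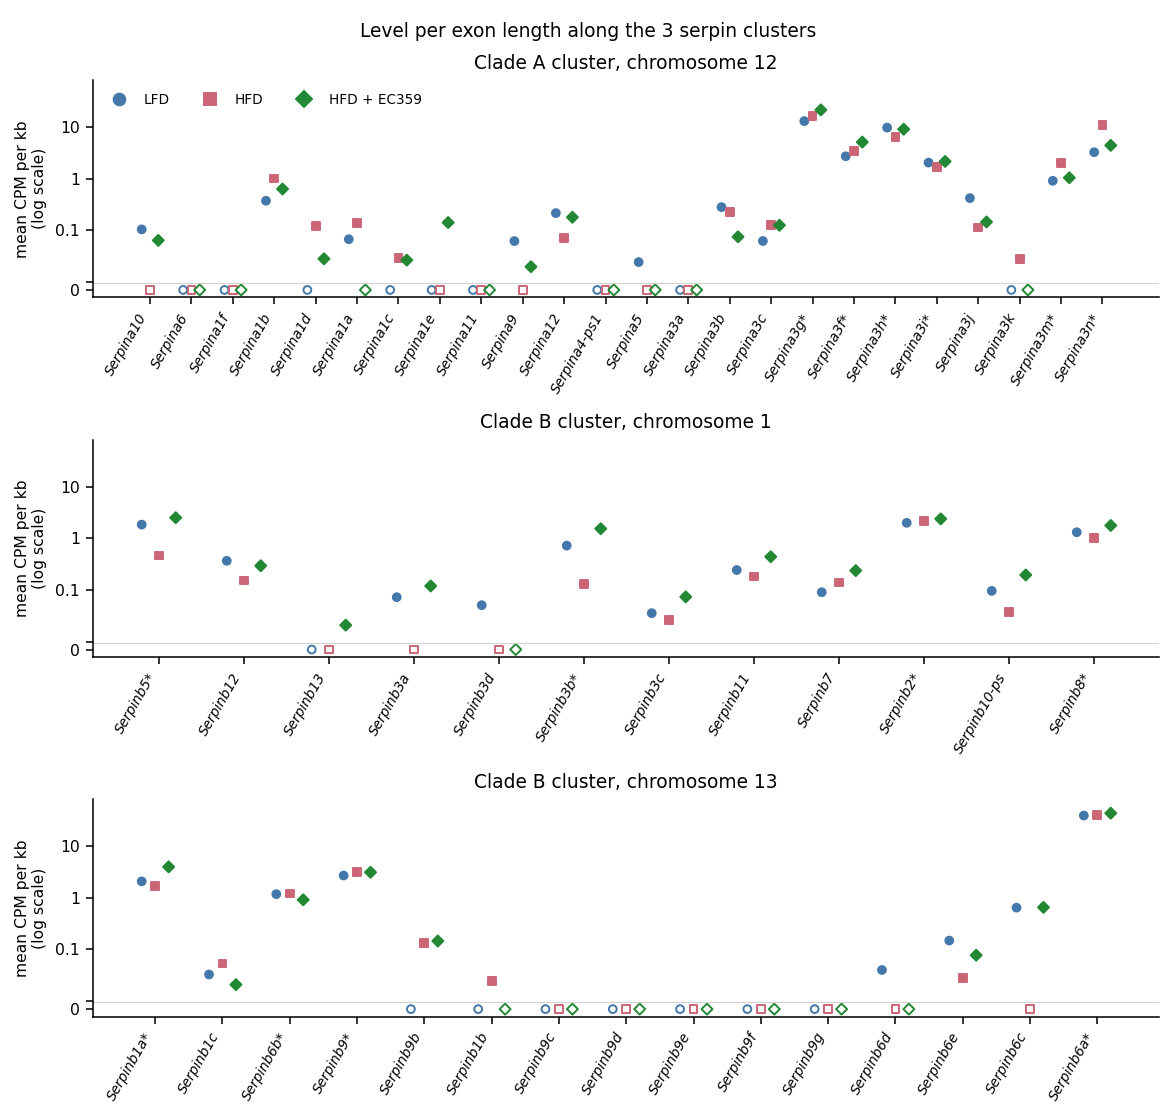
Mean level per exon length (CPM per kb, log scale, with 0 drawn below the line as open symbols) of the members in gene order along the clusters on chromosomes 12, 1 and 13, as circles for LFD, squares for HFD and diamonds for HFD + EC359 tumors, means of 3 libraries each. Asterisks mark tested members, and Serpina3g and Serpinb6a have the highest levels of the clusters.

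The antitrypsin genes of chromosome 12 were scarcely counted. None of the 6 passed the filter, and Serpina1b had the largest counts, with 3, 4 and 2 in LFD, 14, 10 and 9 in HFD and 10, 6 and 8 in HFD + EC359 libraries. LFD and HFD libraries did not overlap, and Serpina1b passed an adjusted p of 0.05 with the diet in 4 alternatives in which it was tested. Serpina1a, Serpina1e and Serpina1d had at most 3, 3 and 2 counts, Serpina1c 1, and Serpina1f none. Among the antichymotrypsin genes, Serpina3b had at most 6 counts, Serpina3j 5, Serpina3c 4 and Serpina3k 1, and Serpina3i, which was tested, had 4.48 ± 0.157, 3.69 ± 0.723 and 4.71 ± 0.375 CPM (adjusted p of 0.342 and 0.246). Of the remaining members, Serpina12 (vaspin) had at most 8 counts and Serpina9 2. Serpina12 had 14 counts in all in LFD and 6 in HFD libraries, 3.16-fold lower after scaling to the totals (95% exact counting interval 1.14 to 10.0). Serpina6 and Serpina7, the hormone-binding globulins, and Serpina3a, Serpina11, Serpina4-ps1 and Serpini2 were not counted.

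Granule proteases and cathepsins, only some of which are targets of these inhibitors, were measured in the same libraries. Of 9 tested serine proteases of leukocyte and mast cell granules, 1 rose and 6 fell with the diet, and 6 rose and 1 fell with EC359. The tryptase Tpsab1 had 37.4 ± 3.93 CPM in LFD, 8.53 ± 0.731 in HFD and 63.3 ± 1.84 in HFD + EC359 tumors, a fall of 2.14 and a rise of 2.89 on the log2 scale (adjusted p = 2.04e-16 and 1.44e-21). Tpsb2, the other tryptase, had 39.7 ± 2.57, 10.7 ± 1.96 and 43.8 ± 1.1 CPM, and the chymases Mcpt4 and Cma1 had 21.1 ± 1.98, 4.76 ± 0.242 and 28 ± 1.82 CPM, and 13.9 ± 0.311, 4.67 ± 0.65 and 17.2 ± 1.6 CPM. All 4 passed 2-fold in both comparisons. Of 8 mast cell markers, which include Mcpt4, Cma1 and Tpsb2, 7 were tested, of which 1 rose and 5 fell with the diet and 6 rose with EC359, with sums of 140 to 155, 75.5 to 76.5 and 164 to 171 CPM. The neutrophil proteases Elane and Ctsg had at most 7 and 4 counts and were not tested. Prtn3, proteinase 3 of neutrophil granules, went the other way from the mast cell proteases, rising by 1.49 on the log2 scale with the diet (SE 0.41, adjusted p = 0.00299) and falling by 1.01 with EC359 (adjusted p = 0.024). Of 8 tested neutrophil markers, 4 rose and 0 fell with the diet, and 4 rose and 2 fell with EC359, with sums of 110 to 131, 151 to 167 and 177 to 185 CPM, and their part was not tested. Of 9 tested cathepsins, 5 rose and 4 fell with the diet, and 6 rose and 0 fell with EC359. Ctsb and Ctsl had the highest CPM of these, without correction for length. On the log2 scale, Ctsb rose by 0.07 with the diet (adjusted p = 0.0396) and by 0.15 with EC359 (adjusted p = 0.000173). Ctsl fell by 0.31 with the diet (adjusted p = 1.76e-09) and rose by 0.35 with EC359 (adjusted p = 2.5e-10). Of 9 tested macrophage markers, 5 rose and 2 fell with the diet, and 8 rose and 0 fell with EC359, with sums of 2048 to 2097 CPM in LFD, 2177 to 2213 in HFD and 2729 to 2747 in HFD + EC359 libraries, and their part in the cathepsin values was not tested.

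Inhibitors outside the serpin family were measured as well. Of 18 tested genes of the Kunitz, WAP, cystatin, Kazal and inter-alpha-trypsin inhibitor families, 5 rose and 10 fell with the diet, and 12 rose and 1 fell with EC359. Slpi, a WAP inhibitor of elastase, fell from 439 ± 20.2 to 246 ± 7.67 CPM with the diet (log2 fold change -0.83, adjusted p = 2.82e-17) and rose by 0.29 with EC359 (adjusted p = 1.76e-06). Wfdc2 fell by 0.71 (adjusted p = 2.32e-15) and had a difference of 0.11 with EC359 (adjusted p = 0.0562). The epidermal inhibitors Spink5 and Cst6 fell by 2.53 and 2.37 on the log2 scale with the diet (adjusted p = 4.65e-12 and 2.47e-12) and rose by 2.67 and 2.27 with EC359 (adjusted p = 2.65e-13 and 3.34e-12). The stefin Stfa3 fell by 3.66 and rose by 2.53 (adjusted p = 1.72e-14 and 2.34e-09), and BC100530, also a stefin, rose by 2.42 with EC359 (adjusted p = 1.35e-12), though stefin copies share sequence and reads may be split unequally. Itih5 and Itih2, heavy chains of the inter-alpha-trypsin inhibitor family, went the other way with the diet and rose by 1.99 and 1.72 (adjusted p = 1.42e-09 and 0.000126). With EC359 Itih5 fell by 1.01 (adjusted p = 9.78e-06) and Itih2 rose by 0.60 (adjusted p = 0.0433). Spint1, an inhibitor of membrane proteases, fell by 1.02 with the diet (adjusted p = 9.3e-10). Most of the epidermal markers given above also fell with the diet and rose with EC359, and their part was not tested.

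**Figure D4:**
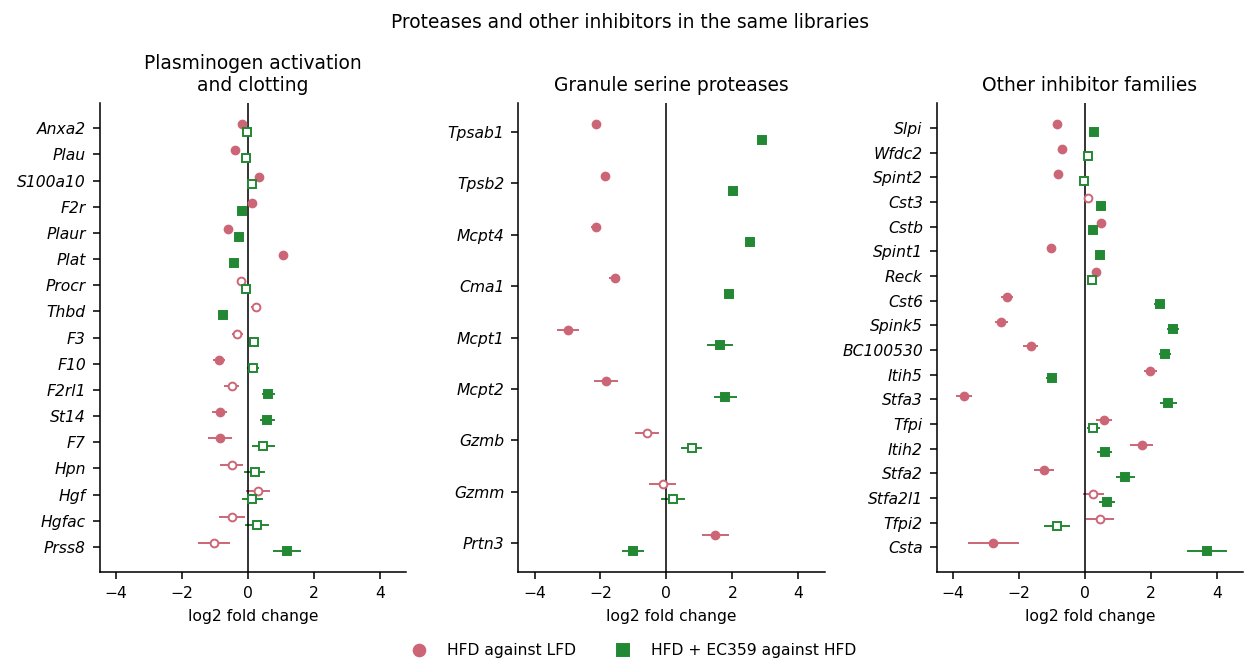
Log2 fold changes with standard errors of the tested genes of 3 lists, from top to bottom by mean CPM, as circles for HFD against LFD and squares for HFD + EC359 against HFD tumors, filled where the adjusted p was under 0.05. The tryptases and chymases, Cst6, Spink5 and Stfa3 lie far to the left with the diet and to the right with EC359, and Plat lies to the right with the diet.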

How the data were processed

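RNA-seq libraries of 4T1 tumors were stranded mRNA libraries read in pairs of 150 bases. The authors counted read pairs per gene with featureCounts 1.5.0 on mm9 gene models, per the file headers, on the reverse strand, with a minimum mapping quality of 2 and with a pair that met more than 1 gene or alignment shared among them as fractions. The deposited values are therefore estimated counts (expected counts), not normalized, and they were rounded to whole numbers here. The submitters' processing notes name HISAT2 2.1.0 as the aligner, and the study's methods name TopHat2 and HTSeq. The mapping quality minimum removes most pairs with several alignments, so that counts of gene copies may be too low.

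Low counts were removed by the filterByExpr rule of edgeR (at least 1.31 CPM in 3 libraries), which left 13366 of 22609 genes, and libraries were scaled by TMM factors. CPM values use these scaled totals, and levels between genes were compared per kb of exon. One quasi-likelihood model (edgeR 4.0.16, R 4.3.3) over all 9 libraries gave 3 comparisons, with standard errors from that fit and Benjamini-Hochberg adjusted p-values over all tested genes. The thresholds were a fold over 2 with an adjusted p under 0.01, as in the study's methods, and an adjusted p under 0.05. The fit was tested on simulated counts first. Groups at 0 were set to a floor of 3 counts per library, and ratios of low counts have exact 95% intervals. These intervals cover counting error only and are not adjusted for the choice of gene. For untested members such ratios are given where the interval did not span equal levels in HFD against LFD or HFD + EC359 against HFD tumors, and most others spanned them. The sources used here do not tie libraries to animals, and p-values then measure the spread between these libraries. Gene coordinates are those of the files (mm9), and promoters are from RefSeq (GRCm38.p6), with no conversion between builds. Alternatives were DESeq2 1.42.0, other scalings and filters, thinning to the smallest total, a fit of 6 libraries, removal of trends with GC content and length, a replicate block, and leaving out each library.

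Values in every library are given for members past 2-fold in HFD against LFD or HFD + EC359 against HFD tumors and for the 6 members highest per length, of which 1 is not reported here. Other tested members are given by role, and untested members by their highest count. Of each further list, counts by direction, the 2 genes of highest CPM and up to 4 genes past 2-fold with the smallest p are given. The members and the gene lists were chosen with earlier results of these data known. Samples were grouped by the labels, and no library was left out of the comparisons.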

Additional observations from a re-analysis of the deposited data

How the results depend on the processing

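Members past the 2-fold threshold numbered 5 in HFD against LFD, 6 in HFD + EC359 against HFD and 0 in HFD + EC359 against LFD tumors. With at least 10 counts required in every library, 15 members were tested and 2 and 3 passed in the first 2 comparisons, since Serpinb5, Serpinb3b and A2m were no longer tested. With all genes of at least 1 count, 51 members were tested and 7 and 7 passed, the gains being Serpina3m and Serpinb6c with the diet and Serpinb6c with EC359. Serpina3m also passed 2-fold with the diet without LFD replicate 3 (log2 fold change 1.73) or HFD replicate 1. Over all genes, calls fell with at least 10 counts in every library from 763 to 356 and from 459 to 211, and in HFD + EC359 against LFD tumors from 680 to 418, and there to 413 with the GC and length trend removed (410 with the replicate block too). In HFD + EC359 against LFD tumors 2 members passed when only library totals were used for scaling, and 0 to 2 when 1 library was left out, with 2 (Serpinb3b and Serpinb1a) without LFD replicate 1, 1 (Serpina3f) without LFD replicate 3 and 1 (Serpinb1a) without HFD + EC359 replicate 1 or 2. Members past an adjusted p of 0.05 in that comparison fell from 8 to 5 after thinning, and Serping1 then fell short of 2-fold in HFD + EC359 against HFD tumors, while Serpinb8 passed it. The causes were not tested.

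No pairing by replicate number was seen. Correlations of deviations from the group mean ran from -0.030 to 0.017 for same-numbered libraries and from -0.023 to 0.027 for differently numbered ones. Most libraries of a group differed little beyond counting error, so a weak pairing could be missed. With the replicate block, 6, 6 and 0 members passed 2-fold in the 3 comparisons, the gain being Serpina3m with the diet.

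Directions turned for the differences named here, given as log2 fold changes. In HFD against LFD tumors, Serpinb2 turned to -0.021 after thinning, -0.33 with the GC and length trend removed and -0.31 with that and the replicate block, and ran from -0.18 to 0.38 without 1 library. Serpinb6a ran from -0.041 to 0.068 without 1 library. Serpinb6b turned to -0.17 with the trend removed and -0.18 with the block too, and ran from -0.13 to 0.30 without 1 library. Serpinb9 turned to -0.058 with the trend removed and -0.057 with the block too. In HFD + EC359 against HFD tumors Serpinb9 turned to 0.021 with library totals and 0.12 after thinning, and ran from -0.077 to 0.027 without 1 library. In HFD + EC359 against LFD tumors, Serpina3m turned to -0.071 after thinning and ran from -0.14 (without LFD replicate 1) to 0.82 without 1 library. With library totals, Serpinf1 turned to 0.012. With the trend removed, and then with the block too, Serpinb5 turned to -0.048 and -0.058, Serpinf1 to 0.14 and 0.14, and Serpinh1 to 0.0582 and 0.0584. None of these passed an adjusted p of 0.05 before the change except Serpinh1. Of the recomputed fold changes, 897 kept their direction and side of the threshold, 40 lost their call, 4 gained one and 28 turned. Depth limits the members of few counts, and 31 counted members had at most 14 counts in a library.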
